A study of Drosophila melanogaster with 12 samples.

Results

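The ELAV family genes of Drosophila melanogaster, elav, fne and Rbp9, were examined in adult brain as a check of neuronal content and of the gene whose promoter drives the transgenes. All probe sets that the array's annotation assigns to these genes were taken, which gave 4 probe sets for 3 genes out of 18769 probe sets on the array that are not controls. Each of the 12 arrays held RNA from about 20 brains of 3-day-old females, with the eyes, lamina and outer medulla removed, and values are the deposited log2 signals. Every fly carried the elav-GAL4 driver, which switches on UAS transgenes in neurons, and a UAS-DsRed reporter. In CAG100 flies (4 arrays) the reporter ended in 100 pure CAG units, in 5 transgene copies. In CAA/G105 flies (4 arrays) it ended in a stretch of CAG units interrupted by CAA, in 2 copies. In CAG0 flies (4 arrays) it had no repeat and 1 copy. The copies were chosen to match reporter mRNA, so repeat type and copy number cannot be told apart. The design text names the pure repeat as toxic and the interrupted repeat as non-toxic.

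ELAV proteins are RNA-binding proteins with several RNA recognition motifs that bind uridine-rich and adenosine- and uridine-rich stretches of transcripts. ELAV itself is the standard marker of fly neurons: it is mainly nuclear, directs neuron-specific splicing, and lets transcripts run past early polyadenylation sites so that neurons make long 3′ untranslated regions. FNE (found in neurons) is a mostly cytoplasmic neuronal paralogue that can take over nuclear functions when ELAV is missing. RBP9 is found in neurons and in the female germ line, where it represses bag of marbles (bam).

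elav and fne lie on the X chromosome and Rbp9 on chromosome arm 2L. RefSeq lists 4 transcripts for elav, 11 for fne and 9 for Rbp9. One probe set each reads elav (1636615_at) and fne (1633852_at), while Rbp9 has a bright probe set (1637957_s_at) and a dim probe set (1630971_s_at). Which of the Rbp9 transcripts each probe set reads is not given in the sources used here. The elav, fne and bright Rbp9 probe sets were above log2 4, the minimum used for testing, on 12 of 12 arrays.

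The dim Rbp9 probe set was below log2 4 on every array and was not tested. It read 1.93, 1.94, 1.92 and 1.93 in CAG100, 1.93, 1.94, 1.93 and 1.93 in CAA/G105, and 1.93 on each CAG0 array. All statements on Rbp9 that follow rest on the bright probe set.

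None of the 3 measured transcripts passed the test in any of the 3 comparisons (limma, adjusted p of 0.05 over 8966 tested probe sets). Over the same probe sets 18.3% passed in CAG100 against CAG0, 13.2% in CAA/G105 against CAG0 and 20.8% in CAG100 against CAA/G105. The highest and lowest of the 12 arrays differed by 0.20 for elav, 0.25 for fne and 0.47 for Rbp9 on the log2 scale, which is 1.15-fold, 1.19-fold and 1.38-fold.

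**Figure D1:**
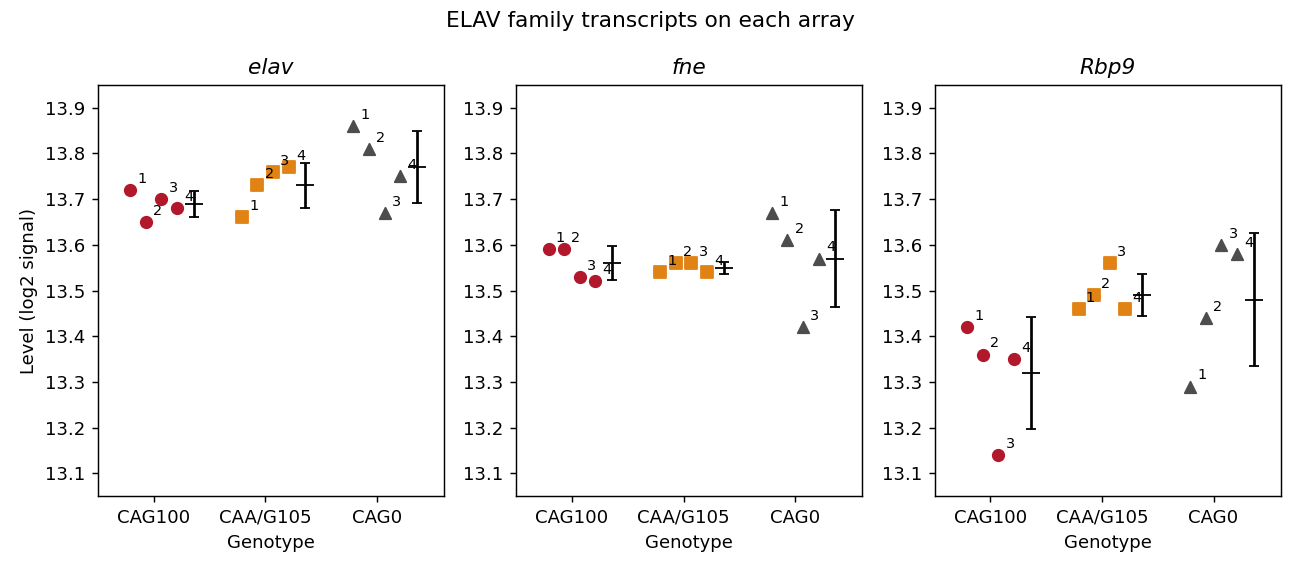
Level of elav, fne and Rbp9 (bright probe set) in log2 signal on each of the 12 arrays, with replicate numbers, and the mean ± SD of each genotype (n = 4) to the right of its points. The vertical axis does not start at 0 and spans less than 1 log2 unit: elav and Rbp9 have their lowest means in CAG100, and fne has nearly equal means.

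For elav, the nuclear family member and the driver's own gene, levels were 13.72, 13.65, 13.70 and 13.68 in CAG100 brains. In CAA/G105 brains they were 13.66, 13.73, 13.76 and 13.77, and in CAG0 brains 13.86, 13.81, 13.67 and 13.75. All genotypes overlapped: CAG0 replicate 3, at 13.67, lay inside the CAG100 range, and CAG0 also had the highest array. The order of the means was CAG100 lowest, then CAA/G105, then CAG0, and no neighbours in that order differed beyond their spread. The labels do not say which elav-GAL4 insertion was used, so whether this probe set also reads RNA from the driver is not known.

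In CAG100 against CAG0 the elav difference was -0.084 ± 0.039 (limma, SE), a fold of 0.943 with a 95% interval of 0.889 to 1 (limma adjusted p = 0.159). A difference of 0.12 would have been called at this spread. Array weights gave an adjusted p of 0.0445 and leaving out CAG0 replicate 3 gave 0.0341 (difference -0.117), so the elav call depended on 1 control array and on the weights (adjusted p = 0.0341 to 0.353 over all alternatives). Both settings also raised the calls over all 8966 tested probe sets, from 1639 to 2385 and 1949. In CAA/G105 against CAG0 the difference was -0.040 ± 0.039 (limma adjusted p = 0.574), with an interval of -0.125 to 0.045. It was -0.012 without CAG0 replicate 1, -0.017 without CAA/G105 replicate 1 and -0.073 without CAG0 replicate 3. In CAG100 against CAA/G105 it was -0.044 ± 0.039 (limma adjusted p = 0.458), with an interval of -0.129 to 0.041, and -0.067 without CAA/G105 replicate 1. These are brain extracts, in which fewer neurons and less elav RNA per neuron cannot be told apart.

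fne, which encodes the mostly cytoplasmic paralogue, read 13.59, 13.59, 13.53 and 13.52 in CAG100 brains and 13.54, 13.56, 13.56 and 13.54 in CAA/G105 brains. The CAG0 brains read 13.67, 13.61, 13.42 and 13.57. Both repeat genotypes lay inside the CAG0 range, and CAG0 replicate 3 had the lowest fne of all arrays, as it had the lowest elav of the CAG0 arrays. The spread differed more than the mean: the CAG100 arrays had an SD of 0.037, the CAA/G105 arrays 0.013 and the CAG0 arrays 0.106.

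The fne difference was -0.011 ± 0.044 in CAG100 against CAG0 (limma adjusted p = 0.892), with a 95% interval of 0.928-fold to 1.06-fold. It was -0.018 ± 0.044 in CAA/G105 against CAG0 (limma adjusted p = 0.86), with an interval of 0.924-fold to 1.06-fold. Between the repeats, CAG100 against CAA/G105, it was 0.006 ± 0.044 (limma adjusted p = 0.932), with an interval of 0.940-fold to 1.07-fold. Only 5.31%, 11.1% and 2.86% of the tested probe sets had a smaller absolute difference in these comparisons. The sign of the fne difference was not stable: in each comparison it turned under at least 1 rescaling or left-out array.

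Rbp9, active in neurons and the female germ line, read 13.42, 13.36, 13.14 and 13.35 in CAG100 brains and 13.46, 13.49, 13.56 and 13.46 in CAA/G105 brains. The CAG0 brains read 13.29, 13.44, 13.60 and 13.58. All CAG100 arrays lay below all CAA/G105 arrays, whereas CAG0 replicate 1, at 13.29, lay inside the CAG100 range. The means had the order CAG100 lowest, then CAG0, then CAA/G105, and the neighbouring CAG0 and CAA/G105 arrays overlapped widely. Separation of this kind, with all CAG100 arrays the lower, was shown by 13.2% of the tested probe sets in that comparison.

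Rbp9 was 13.32 ± 0.123 in CAG100 and 13.49 ± 0.046 in CAA/G105 (SD, n = 4 each), a difference of -0.175 ± 0.072 in log2 signal. That is a fold of 0.885 with a 95% interval of 0.794 to 0.987 (limma adjusted p = 0.105). Against CAG0, at 13.48 ± 0.145 (SD, n = 4), CAG100 differed by -0.163 ± 0.072 (limma adjusted p = 0.139), with an interval of -0.320 to -0.007. An interval that leaves out 0, which is the same as an unadjusted p under 0.05, was found for 34.8% of all tested probe sets in CAG100 against CAA/G105 and for 32.3% in CAG100 against CAG0 (26.2% in CAA/G105 against CAG0). CAA/G105 against CAG0 gave 0.012 ± 0.072 (limma adjusted p = 0.947), with an interval of 0.905-fold to 1.12-fold. The sign of that value turned in 4 of 23 alternatives, and leaving out single arrays gave -0.051 (without CAG0 replicate 1) to 0.054 (without CAG0 replicate 3).

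The Rbp9 values leaned on single arrays. Without CAG0 replicate 1 the difference of CAG100 from CAG0 was -0.226 and passed (limma adjusted p = 0.0343, with 0.0343 and 0.344 the extremes of its alternatives). Without CAG100 replicate 3, the lowest array, it was -0.104 (limma adjusted p = 0.344), and the difference from CAA/G105 was -0.116 (adjusted p = 0.278). With array weights the difference of CAG100 from CAA/G105 passed (-0.185, limma adjusted p = 0.049, with 0.049 and 0.414 the extremes). These weights raised the calls over all tested probe sets in that comparison from 1869 to 2566. In CAG100 against CAG0 the calls fell from 1639 to 1391 without CAG0 replicate 1. CAG100 replicate 3 is also 1 of 3 arrays without signal for Akh, which encodes adipokinetic hormone and is expressed in the corpora cardiaca, glandular tissue that can be dissected with a brain. Akh read 2.43 on that array, 2.25 on CAG100 replicate 1 and 2.06 on CAA/G105 replicate 3, against 11.04 or more on the other 9 arrays. Rbp9 was not low on all of them: CAG100 replicate 1 (13.42) and CAA/G105 replicate 3 (13.56) had the highest Rbp9 of their genotypes. The part of gland tissue in the Rbp9 level was not tested. Without these 3 arrays the Rbp9 difference of CAG100 was -0.118 from CAA/G105 and -0.128 from CAG0 (limma adjusted p = 0.414 and 0.332).

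**Figure D2:**
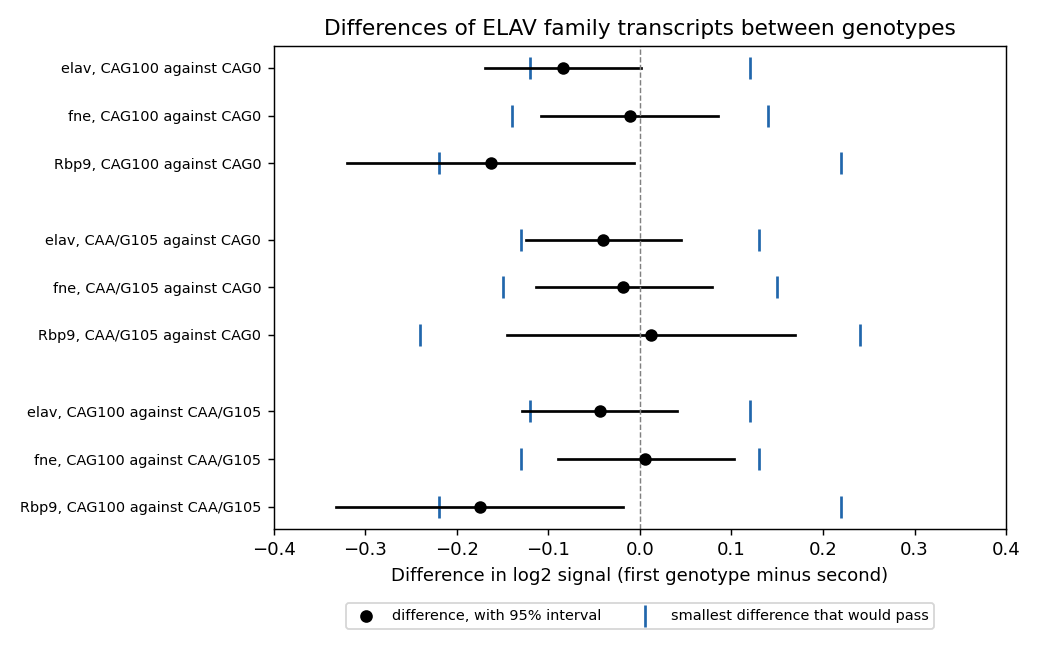
Differences of elav, fne and Rbp9 in log2 signal (first genotype named minus the second) with 95% intervals, and blue ticks at the smallest difference that would have passed the test for that transcript and comparison. All 9 points lie inside their ticks, and the points farthest from 0 are Rbp9 in CAG100, at -0.163 against CAG0 and -0.175 against CAA/G105.

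Small differences in signal would have passed the test for these transcripts. Whether signal follows RNA amount evenly at these levels was not tested. In CAG100 against CAG0 the smallest difference that would have passed was 0.12 for elav, 0.14 for fne and 0.22 for Rbp9, equal to 1.09-fold, 1.10-fold and 1.17-fold. The pooled SD within genotypes was 0.056 for elav, 0.065 for fne and 0.113 for Rbp9, against a median of 0.121 over all tested probe sets. Probe sets near elav in signal had a median SD of 0.064, so each gene was also set beside probe sets within 1 log2 unit of its own mean level. Of these, 36.8% varied less than elav and 47.6% less than fne, while 86.9% varied less than Rbp9. Pooled over genotypes, Rbp9 thus varied more among arrays than most transcripts of like signal, and elav and fne did not. This came from CAG100 (SD 0.123) and CAG0 (SD 0.145). In CAA/G105 the Rbp9 SD was 0.046, below the median pooled SD of 0.07 for probe sets of like signal.

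Whether the family members changed by unequal amounts was tested on the difference of their log2 signals within each array. The size of such a difference depends on the probes and means nothing by itself, so only its shift between genotypes was tested. That shift can still depend on probe response and on normalization. The elav minus fne difference was 0.06 to 0.17 in CAG100 and 0.18 to 0.25 in CAG0, with no overlap, a shift of -0.07 (exact two-sided permutation p = 0.0286, adjusted p = 0.129). The fne minus Rbp9 difference was 0.16 to 0.39 in CAG100 and 0 to 0.08 in CAA/G105, again with no overlap, a shift of 0.18 (exact permutation p = 0.0286, adjusted p = 0.129). How often pairs of other transcripts separate in this way was not tested, so neither separation is shown to be particular to the family. Under quantile normalization the elav minus fne shift was -0.06 (exact permutation p = 0.0857) and the fne minus Rbp9 shift 0.19 (exact permutation p = 0.0286). With 4 arrays against 4, 0.0286 is the smallest p that the test can give, and 6 of the 9 tests would have had to reach it for any to pass after adjustment. The elav minus Rbp9 shift in CAG100 against CAA/G105 was 0.13 (exact permutation p = 0.0857, adjusted p = 0.257) and 0.07 without CAG100 replicate 3, and the other 6 tests gave exact permutation p-values of 0.229 to 0.743.

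The transcripts were also compared by how each array deviated from the mean of its genotype. Among CAG0 arrays elav and fne had the same order (replicate 1 highest, then 2, 4 and 3), and Rbp9 was lowest on replicate 1 and highest on replicate 3. Over 12 arrays the deviations of elav and fne gave r = 0.77 (permutation within genotypes, p = 0.0335, adjusted over 3 relations p = 0.1) and rho = 0.57 (permutation p = 0.0943, adjusted p = 0.283). Without CAG0 replicates 1 and 3, the arrays farthest from the elav median, r was 0.25, so the relation rested on these arrays. Within the 8 arrays of the repeat genotypes r was 0.08. elav and Rbp9 gave r = -0.51 (permutation p = 0.182, adjusted p = 0.273) and rho = -0.50 (permutation p = 0.203, adjusted p = 0.304), and r = -0.04 without the same arrays. fne and Rbp9 gave r = -0.44 (permutation p = 0.365, adjusted p = 0.365) and rho = -0.25 (permutation p = 0.553, adjusted p = 0.553), and r = 0.37 without the same arrays. Within the 8 arrays of the repeat genotypes r was 0.11 for elav and Rbp9 and 0.63 for fne and Rbp9, so the negative values over 12 arrays rested on CAG0 arrays. On CAG0 replicate 1 the mean of 10 haemocyte and basement membrane genes was 11.44, against 10.75 to 11.01 on the other CAG0 arrays. That array also had the highest CAG0 mean of 6 fat body genes (13.11, against 12.01 to 12.35) and of 7 photoreceptor genes (10.24, against 9.34 to 9.62). The fat body mean leaned on Lsp2, at 9.92 there against 5.89 to 6.76 on the other CAG0 arrays. Yp3 read 14.55 there, against 13.87 to 14.20. The part of these tissues in the spread of elav, fne and Rbp9 was not tested.

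**Figure D3:**
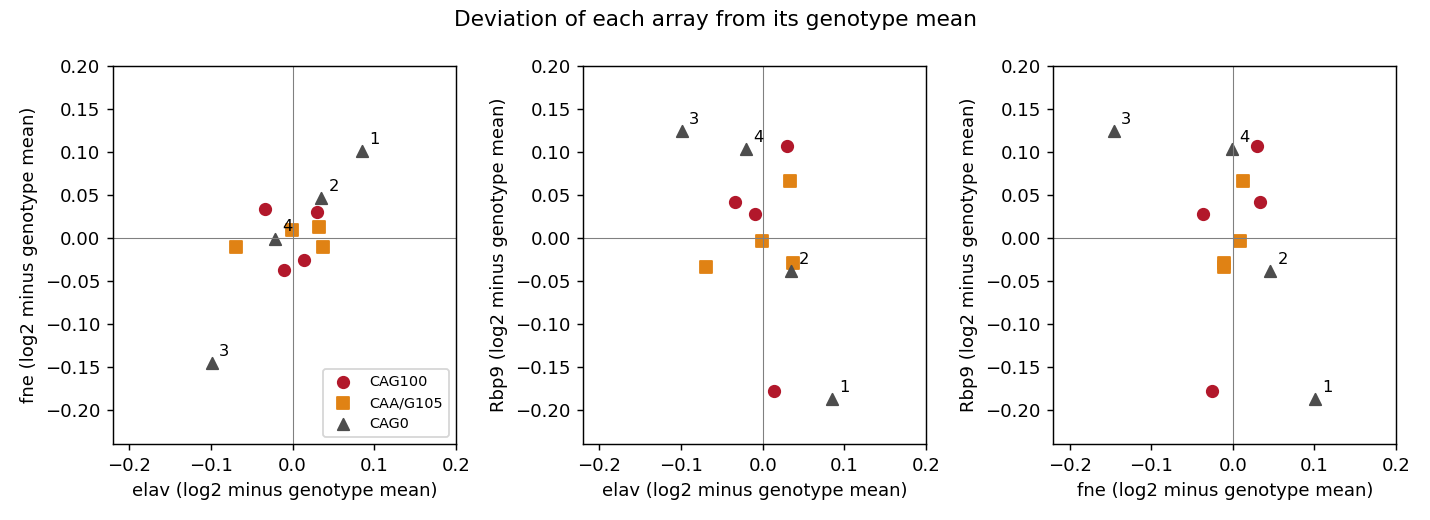
Deviation of each array from the mean of its genotype, in log2 signal, for each pair of ELAV family transcripts, with CAG0 arrays numbered by replicate. CAG0 replicates 1 and 3 lie at opposite corners in each panel, and among the 8 arrays of the repeat genotypes r was 0.08 for elav and fne, 0.11 for elav and Rbp9 and 0.63 for fne and Rbp9.

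The transcripts whose pattern over the 12 arrays was most like each family member were listed as a description, by Pearson's r among 7670 single-gene probe sets. For elav these were CG14562 (r = 0.934), HUWE1, which encodes a ubiquitin ligase (r = 0.907), and Polr3A, which encodes the largest subunit of RNA polymerase III (r = 0.904). Their means had a narrow range too, with HUWE1 averaging 10.73 in CAG100 brains, 10.85 in CAA/G105 brains and 10.91 in CAG0 brains. For fne they were Su(Tpl), which encodes an elongation factor of the ELL family (r = 0.909), CG4328 (r = 0.908) and Pfrx, which encodes a regulator of glycolysis (r = 0.906). For Rbp9 they were CG8500 (r = 0.95), sced (r = 0.923) and CG8320 (r = 0.915). An r of at least 0.8 was reached by 80 probe sets for elav, 73 for fne and 106 for Rbp9, and all 12 arrays share genotype means and normalization. No family member was among the 3 nearest of another.

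As a check of the tissue, transcripts of neuronal and synaptic genes were measured in 16 of 20 listed genes, the other 4 having no probe set that names them. Their mean log2 signal ran between 13.16 and 13.34 on the CAG100 arrays, 13.25 and 13.38 on the CAA/G105 arrays, and 13.34 and 13.37 on the CAG0 arrays. In CAG100 against CAG0, 3 of 16 were lower and none higher, with a list median of -0.11, where the median of all tested probe sets was -0.03 and 10.4% of them were lower. The lower genes were the calcium channel gene cac (-0.15 ± 0.04, limma adjusted p = 0.0281), the synaptic growth regulator gene nwk (-0.15 ± 0.04, adjusted p = 0.012) and the synaptic vesicle chaperone gene Csp (-0.11 ± 0.04, adjusted p = 0.0414). That share, 18.8%, rests on 3 genes. It lies above the 10.4% of all tested probe sets that were lower and near the 18.3% that passed in either direction. Differences below 0 were found for 14 of the 16 genes and for 56.7% of all tested probe sets, and elav (-0.084), fne (-0.011) and Rbp9 (-0.163) were below 0 as well. nSyb, a synaptic vesicle fusion gene, was 13.01 ± 0.08 in CAG100 and 12.96 ± 0.11 in CAG0 (SD, n = 4 each).

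In CAA/G105 against CAG0 only Csp passed among the 16 neuronal genes (-0.12 ± 0.04, limma adjusted p = 0.0435), and the list median was -0.01. That is 6.25% of the 16, beside 13.2% of all tested probe sets in either direction and 7.72% lower. Of the 16, 9 were below 0, as were 52.5% of all tested probe sets. In CAG100 against CAA/G105 none passed in limma, 5 had an unadjusted p under 0.05 (34.8% of all tested probe sets did), and the median was -0.06. Here 12 of the 16 were below 0, beside 53.8% of all tested probe sets. The smallest p-values were those of futsch, which encodes a microtubule-associated protein (-0.11 ± 0.04, adjusted p = 0.0858), and Appl, the fly amyloid precursor gene (-0.06 ± 0.02, adjusted p = 0.0939). Any pair of the 3 comparisons shares the 4 arrays of a genotype, so they are not independent.

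Transcripts known to be bound or processed by ELAV family proteins were measured in 7 of 11 listed genes; bam, the germ-line target of RBP9, was below log2 4 on all arrays (2.38 to 2.47). None of the 7 passed in CAG100 against CAG0 in limma, 3 had an unadjusted p under 0.05 (32.3% of all tested probe sets did), and the median was -0.12. The smallest p-values were those of emc, a helix-loop-helix inhibitor gene whose mRNA RBP9 binds (0.11 ± 0.03, adjusted p = 0.0524), and nej, the CBP acetyltransferase gene (-0.17 ± 0.06, adjusted p = 0.09). ewg, the transcription factor gene whose splicing ELAV controls, read 13.14 in CAG100 and 13.26 in CAG0 (limma adjusted p = 0.16). Nrg, the neuroglian gene with an ELAV-dependent neuronal exon, read 12.15 in both (limma adjusted p = 0.956). emc was higher in CAA/G105 than in CAG0 (0.12 ± 0.03, limma adjusted p = 0.0458), the only one of the 7 to pass there, with a median of 0.05. pum, a translational repressor gene whose 3′ end ELAV extends in neurons, was lower in CAG100 than in CAA/G105 (-0.15 ± 0.04, limma adjusted p = 0.0175), again 1 of 7, with a median of -0.09. Each is 14.3% of the 7, where 13.2% of all tested probe sets passed in CAA/G105 against CAG0 (5.49% higher) and 20.8% in CAG100 against CAA/G105 (10.5% lower). Of the 7, 6 were below 0 in CAG100 against CAG0, 2 in CAA/G105 against CAG0 and 7 in CAG100 against CAA/G105. Over all tested probe sets these shares were 56.7%, 52.5% and 53.8%. A probe set sums over its transcript forms, so splicing and 3′ end choice were not measured.

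Among other RNA-binding protein genes, including the ELAV relative Sxl, its paralogue ssx and neuronal splicing regulators, 12 of 15 were measured. In CAG100 against CAG0 only ps passed, with a list median of -0.05. That is 8.33% of the 12, beside 18.3% of all tested probe sets in either direction and 10.4% lower. The gene ps, of the Nova relative pasilla, read 13.64 ± 0.02 in CAG100 and 13.76 ± 0.03 in CAG0 (limma adjusted p = 0.0108). Sxl, which sets female splicing, was 13.61 in CAG100 and 13.54 in CAG0 (limma adjusted p = 0.509). In CAA/G105 against CAG0 none of the 12 passed in limma, and 5 had an unadjusted p under 0.05 (26.2% of all tested probe sets did), the smallest being those of ssx (0.21 ± 0.07, adjusted p = 0.0799) and Fmr1 (0.14 ± 0.05, adjusted p = 0.0775), with a median of 0.06. In CAG100 against CAA/G105 pum and ps were lower (ps -0.09 ± 0.03, limma adjusted p = 0.0371), with a median of -0.10. They are 16.7% of the 12, where 10.5% of all tested probe sets were lower and 20.8% passed in either direction. Of the 12, 8 were below 0 in CAG100 against CAG0, 3 in CAA/G105 against CAG0 and 11 in CAG100 against CAA/G105. Over all tested probe sets these shares were 56.7%, 52.5% and 53.8%.

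**Figure D4:**
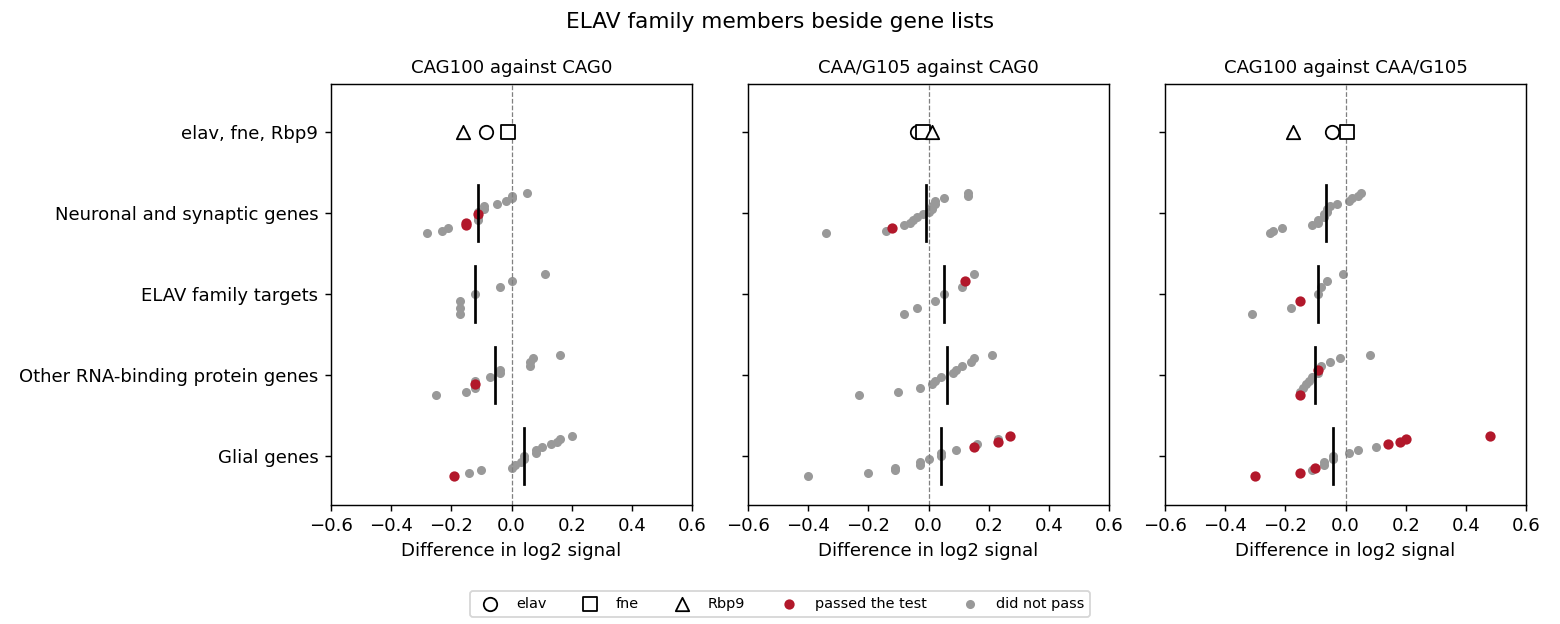
Differences in log2 signal of elav, fne and Rbp9 (open symbols) beside genes of 4 lists (dots, red where the gene passed the test), with each list's median as a bar, in each comparison. elav, fne and Rbp9 lie within the range of the neuronal genes in every panel. In CAG100 against CAG0 14 of the 16 neuronal genes and 3 of the 15 glial genes lie below 0.

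Glial genes were measured in 15 of 16 listed genes, and repo, the transcription factor gene that marks glia, read 13.36 ± 0.03 in CAG100 brains, 13.46 ± 0.03 in CAA/G105 brains and 13.32 ± 0.06 in CAG0 brains (SD, n = 4 each). In CAG100 against CAG0, 1 of 15 passed, beside 18.3% of all tested probe sets in either direction and 10.4% lower, and the list median was 0.04. Differences below 0 were found for 3 of the 15 and for 56.7% of all tested probe sets. The gene that passed was the astrocyte gene alrm (-0.19 ± 0.03, limma adjusted p = 0.00128). In CAA/G105 against CAG0, 3 of 15 were higher, beside 5.49% of all tested probe sets. They were repo (0.15 ± 0.03, limma adjusted p = 0.0112) and the blood-brain barrier genes moody (0.27 ± 0.08, adjusted p = 0.0463) and Mdr65 (0.23 ± 0.06, adjusted p = 0.0305). The list median was 0.04, and 6 of the 15 genes were below 0, the lowest being axo (-0.40 ± 0.15, limma adjusted p = 0.112). In CAG100 against CAA/G105, 4 of 15 were higher and 3 lower, beside 10.4% and 10.5% of all tested probe sets, and the median was -0.04. The largest of these were axo (0.48 ± 0.15, limma adjusted p = 0.0397), which encodes a neurexin-like glial protein, and the trehalose transporter gene Tret1-1 (-0.30 ± 0.06, adjusted p = 0.00462). The mean glial signal ran between 12.70 and 12.79 on the CAG100 arrays, 12.70 and 12.75 on the CAA/G105 arrays, and 12.66 and 12.73 on the CAG0 arrays.

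Other tissue varied more between arrays than the ELAV family did. The mean of 7 measured photoreceptor genes, which belong to neurons that also express elav, ran between 8.94 and 10.3 on the CAG100 arrays, 8.36 and 10.03 on the CAA/G105 arrays, and 9.34 and 10.24 on the CAG0 arrays. None of the 7 passed in any comparison in limma, and only trp in CAG100 against CAG0 and chp in CAG100 against CAA/G105 had an unadjusted p under 0.05. The list median was 0.01 in CAG100 against CAG0, with 2 of 7 genes below 0. It was -0.45 in CAA/G105 against CAG0, with 6 of 7 below 0, and 0.5 in CAG100 against CAA/G105, with none below 0. The rest of the 14 listed genes have no probe set that names them. The mean of 5 muscle genes ran between 4.69 and 7.69 on the CAG100 arrays and 4.21 and 9.14 on the CAA/G105 arrays. On the CAG0 arrays it ran between 5.20 and 7.57. Of these 5 only fln, the flightin gene, passed. It was lower in CAA/G105 than in CAG0 (-1.96 ± 0.11, limma adjusted p = 6.91e-08) and higher in CAG100 than in CAA/G105 (1.94 ± 0.11, adjusted p = 7.14e-08). That is 20% of the list each time, beside 13.2% and 20.8% of all tested probe sets in either direction, of which 7.72% were lower and 10.4% higher, as shares of all tested. The list went the other way in CAG100 against CAA/G105, with 4 of 5 genes below 0 and a median of -0.66. Across the CAA/G105 arrays fln lay between 7.77 and 8.12, where the muscle mean ran between 4.21 and 9.14. Haemocyte genes had none of 10 past the test in CAG100 against CAG0 (limma, 1 with an unadjusted p under 0.05). In CAA/G105 against CAG0, 4 of 10 were lower, beside 7.72% of all tested probe sets. In CAG100 against CAA/G105, 3 of 10 were higher, beside 10.4% of all tested probe sets, among them PPO2 (1.01 ± 0.18, limma adjusted p = 0.00151). Of 6 measured fat body genes 1 passed in CAG100 against CAG0, the lipid transfer particle gene apoLTP (0.55 ± 0.16, limma adjusted p = 0.0358). In CAG100 against CAA/G105 1 passed, the yolk protein gene Yp3 (0.37 ± 0.11, limma adjusted p = 0.0377). Each is 16.7% of the 6, beside 18.3% and 20.8% of all tested probe sets in either direction. Higher were 705 of 8966 probe sets in CAG100 against CAG0 and 10.4% in CAG100 against CAA/G105. The part of these tissues in the levels of elav, fne and Rbp9 was not tested.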

How the data were processed

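Total RNA was amplified with the NuGEN Ovation Pico system, labelled with biotin and hybridised to Affymetrix arrays, per the labels' protocols. The deposited values are log2 signals per probe set, made with GCRMA and Partek per the submitters' processing notes; versions and settings are not given in the sources used here. They lay between 1.746 and 15.96 and were not rescaled. Precision is limited by having 4 arrays per genotype. The labels call the replicates independent.

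Testing needed a log2 signal of 4 or more on 4 or more arrays, met by 8966 of 18769 probe sets. The fit, with 3 genotype means, used limma 3.58.1 (R 4.3.3), a trend of variance on the mean and Benjamini-Hochberg adjustment over all tested probe sets. It was tested on simulated data. Symbols are those of the array's annotation, updated through a RefSeq gene table (Release 6 plus ISO1 MT); no coordinates or sequences were used. Lists were read through each gene's brightest tested probe set. From each list at most 4 called genes were named, taken by size of change, or else 2 by p. nSyb, ewg, Nrg, Sxl and Yp1 fall outside that rule and were picked with values known. So were repo outside its CAA/G105 call and axo in CAA/G105 against CAG0. The genes and lists were chosen with earlier results of these data known. Alternatives covered filter, scaling, variance model, weights, samples and left-out arrays.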

Additional observations from a re-analysis of the deposited data

Results flagged for a closer look

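None of the 9 genotype groups of elav, fne and Rbp9 had an array set apart from its fellows by Dixon's criterion. Over all named genes 8 of 111 groups did, and chance gives about 1 in 20. Among CAA/G105 arrays Akh read 2.06 on replicate 3, where the others had 11.32 or more. In CAG100, trp read 7.07 and chp 7.68 on replicate 1, against at least 8.96 and 9.58 on the others, and Lsp2 read 3.46 on replicate 2 against at least 5.28. Small gaps set apart Csp on CAG0 replicate 3 (13.88, others up to 13.78), futsch on CAG0 replicate 4 (13.94, others up to 13.86), Appl on CAA/G105 replicate 1 (14.42, others at least 14.49) and nej on CAA/G105 replicate 3 (12.85, others up to 12.66).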

How the results depend on the processing

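Of the 9 results of elav, fne and Rbp9, none passed as reported, and 6 stayed so under all 23 alternatives. With array weights elav passed in CAG100 against CAG0 (-0.101, limma adjusted p = 0.0445) and Rbp9 in CAG100 against CAA/G105 (-0.185, adjusted p = 0.049). The weights raised the calls over all 8966 tested probe sets as well, from 1639 to 2385 and from 1869 to 2566. Leaving out single arrays gave -0.117 to -0.056 for elav and -0.226 to -0.104 for Rbp9 in CAG100 against CAG0. There elav passed without CAG0 replicate 3, where 1949 probe sets passed in all, and Rbp9 without CAG0 replicate 1, where 1391 did. The cause of these passes was not tested. With the replicate number as a block, CAG100 against CAG0 gave adjusted p = 0.229 for elav (-0.084) and 0.199 for Rbp9 (-0.163), and 1466 probe sets passed in place of 1639; the block changed no call of the family. Same-numbered arrays did not deviate together (r = -0.26 to 0.39, above 0.1 in 3 of 12 pairs), and not every array correlated best with its own number. Without the 3 arrays that lacked Akh signal 948 probe sets passed in CAG100 against CAG0 and 924 in CAG100 against CAA/G105 (1869 with all arrays), with fewer arrays to test. Shifting each array to the same median over the tested probe sets, chosen after seeing the data, made 53.9% of the calls in CAG100 against CAG0 higher, against 43.0% as reported and 36.2% with a shift to the same median over all probe sets. Unequal change between transcripts could pass only if 6 of 9 tests reached the smallest p, so its lack of calls under quantile normalization or without single arrays says nothing of stability. Before adjustment, elav minus fne in CAG100 against CAG0 had an exact permutation p of 0.0286 as reported and 0.0857 under quantile normalization. Without single arrays that p was 0.0286 to 0.0857. Averaging all probe sets of a gene moved the median of ELAV family targets to -0.08 in CAG100 against CAG0 and 0.09 in CAA/G105 against CAG0, and that of RNA-binding protein genes to -0.02 in CAG100 against CAG0; other list medians moved by 0.02 or less.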
